A study of Homo sapiens with 16 samples.

Results

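The genes described here are 41 human genes that are induced by interferon or that sense nucleic acids, taken by symbol from a fixed list. Of the 41, 35 have a row among the 26410 genes of both deposited tables, one table for untreated cells and one for cells treated with doxorubicin. IFI16, IFITM1, PSMB8, PSMB9, IFI27 and XAF1 were not analysed here. RIG-I is named DDX58, as in GENCODE 29.

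The cells were SH-SY5Y, a line from a human neuroblastoma, and the drug was doxorubicin, which breaks DNA and is used in chemotherapy. The study asked how TRPM2, a calcium-permeable ion channel, affects growth and the response to doxorubicin. Poly(A) RNA was sequenced from 2 single-cell clones with the label TRPM2 KO, KO11 and KO28, and from 2 clones that had received a scrambled guide, Scr13 and Scr16. Each clone had 2 replicates after 24 h in medium alone or with doxorubicin. The sample labels give a dose of 0.3 µM, and the text for the whole series gives 3 µM. This gave 16 libraries in 4 groups of 4: Scr untreated, KO untreated, Scr doxorubicin and KO doxorubicin. KO cells had been transfected with Cas9 and a TRPM2 guide, Scr cells with Cas9 and a scrambled guide, and both also received a donor vector with GFP and puromycin markers and grew under puromycin. All groups thus share Cas9, the donor and the selection, and each genotype rests on 2 clones, so that the p-values measure the spread between libraries of these clones. The study's methods call the replicates of a clone biological replicates and do not say whether they were separate cultures.

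Between 10481177 and 25086085 reads per library fell on genes, with a median of 16037366.5. Values are normalized CPM, read counts that the authors scaled to a common library size with a factor for each library, and 3 reads correspond to between 0.118 and 0.285 normalized CPM. Values of a group are listed in the order of clone Scr13 or KO11, replicates 1 and 2, and then clone Scr16 or KO28, replicates 1 and 2. In bulk RNA, fewer cells with a transcript and less RNA per cell cannot be told apart.

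TRPM2, the targeted gene, went against its label without treatment. It was at 0.118, 0.115, 0 and 0 normalized CPM in the Scr untreated libraries and at 1.93, 2.23, 1.41 and 2.19 in the KO untreated libraries, which do not overlap. After doxorubicin, it was at 0.0594, 0.0631, 1.33 and 0.390 in Scr and at 1.22, 1.83, 1.37 and 0.658 in KO, which overlap. By the study's methods, the stretch encoding the start of the protein was deleted and the rest was shifted out of frame, so that reads over the whole gene do not check the edit. The untreated Scr libraries, at 0 to 0.118, also go against their label, and all comparisons share clones with these groups, so that no comparison can be given without the clones concerned. KO below means a library labelled TRPM2 KO, and each direction rests on that label.

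Cells detect foreign or misplaced nucleic acid with cytosolic sensors. CGAS binds DNA and signals through STING1, and DDX58, IFIH1 and DHX58 bind RNA. These pathways activate IRF3, a transcription factor for interferon genes. Secreted interferon acts on its receptor and drives STAT2 and IRF9 into a complex that binds the interferon-stimulated response element, and GAS is the other DNA element of the pathway. The induced genes encode antiviral enzymes (the OAS family), RNA-binding proteins (the IFIT family), membrane proteins (the IFITM family and BST2), the ubiquitin-like protein ISG15 and its enzymes, and ADP-ribosyltransferases such as PARP14 and PARP9.

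The 2 DNA elements were searched for by their core letters, GAAA, any 2 bases and GAAA again on either strand for the response element and TTCNNNGAA, which reads the same on both strands, for GAS. The search covered 250 bases before each start in RefSeq promoters on GRCh38.p14, which were given for 24 of the 35 genes. The first core was present in 16 of these 24 genes (66.7%), against 3.71% of 27305 genes with a promoter entry, and the second in 7 of 24 (29.2%), against 8.09%. PARP14, BST2 and MX1 held both, as did 0.509% of all genes. The windows of 4 of the genes called between KO and Scr in the tests below are printed, with core matches in capitals, so that the elements can be set beside their values. Bases inside the GENCODE 29 gene are left out, except that PARP14 is shown as 30 bases around its matches. The positions are chr3:122680795-122680824 (plus strand) for PARP14, chr12:112938224-112938351 (plus) for OAS3, chr5:132490799-132491023 (minus) for IRF1, and chr7:93118024-93118229 (minus) for SAMD9.
PARP14: agttTTCCAGGAAacGAAAGCGAAAgagtc
OAS3: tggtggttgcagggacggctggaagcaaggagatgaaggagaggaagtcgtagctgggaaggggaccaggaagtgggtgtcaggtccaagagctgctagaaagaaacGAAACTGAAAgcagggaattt
IRF1: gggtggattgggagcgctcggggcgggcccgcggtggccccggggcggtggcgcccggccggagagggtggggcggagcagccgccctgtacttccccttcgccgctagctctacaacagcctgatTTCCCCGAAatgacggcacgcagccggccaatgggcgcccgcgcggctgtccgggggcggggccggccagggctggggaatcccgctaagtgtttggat
SAMD9: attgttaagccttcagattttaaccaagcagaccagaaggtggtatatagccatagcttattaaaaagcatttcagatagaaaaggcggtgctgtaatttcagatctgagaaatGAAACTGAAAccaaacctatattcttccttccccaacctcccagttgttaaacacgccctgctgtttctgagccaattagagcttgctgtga
In PARP14 the GAS core ends 32 bases before the start and the response element core begins 29 bases before it. OAS3 holds the response element core 143 to 134 bases before its start and again 12 to 3 bases before it, outside the printed window. SAMD9 holds it 136 to 127 bases before its start. IRF1 holds the GAS core alone. OAS1, also called below but not printed, holds the GAS core alone too, 168 to 160 bases before its start. STAT2, UBE2L6, DDX58 and DTX3L held neither set of letters, which says nothing of other forms of the elements.

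Over the 16 libraries, the 35 genes ranged from 7 reads in all (IFIT3) to 15208 (STAT2). Of the 35 genes, 6 had a median of at least 10 normalized CPM over the 16 libraries, 9 a median from 1 to under 10 and 20 a median under 1 (57.1%, against 46.1% of all genes in the tables). In all 16 libraries, 10 genes reached 1 normalized CPM and 13 stayed under it. Per kilobase of exon, the highest medians were 21.5 normalized CPM for UBE2L6, the conjugating enzyme of ISG15, 10.3 for IFI6, a mitochondrial and endoplasmic reticulum protein, 9.57 for STAT2, 6.003 for IRF3, 4.90 for OAS3 and 4.25 for IFIT5. DTX3L, a ubiquitin ligase that partners PARP9, followed at 1.70, ISG15 at 1.47, DDX58 at 1.07 and OAS1 at 1.02 normalized CPM per kilobase.

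**Figure D1:**
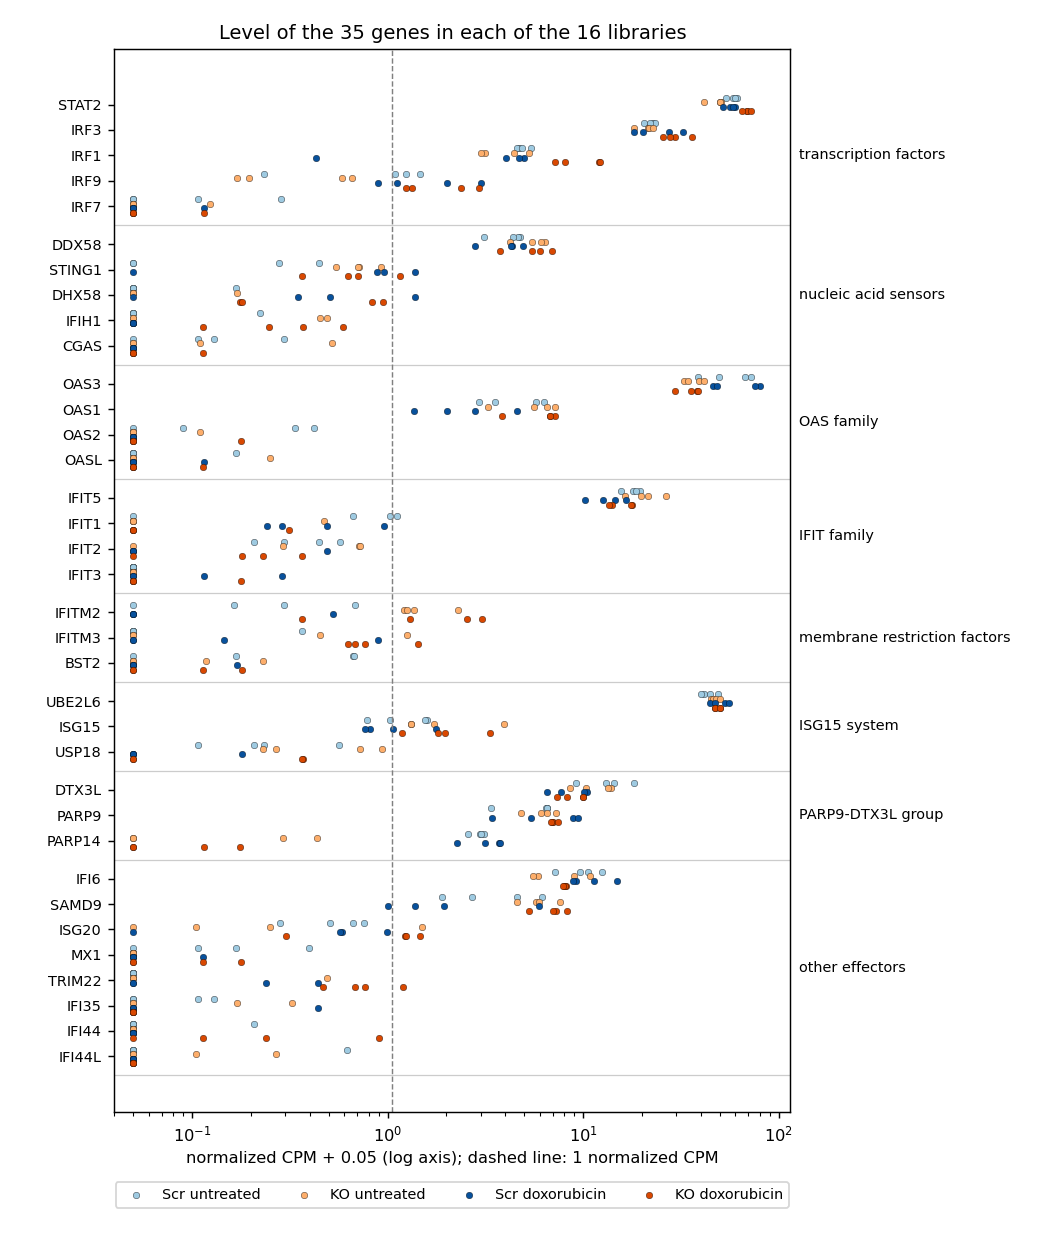
Level of the 35 genes in each of the 16 libraries, in normalized CPM plus 0.05 on a log axis, with 1 point per library, colours for the 4 groups and genes ordered by role. Of the 35 genes, 20 have a median left of the dashed line at 1 normalized CPM, and the PARP14 points of Scr and KO libraries lie apart.

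CGAS, the cytosolic DNA sensor, had 16 reads over the 16 libraries, at 0.0787, 0.0576, 0.245 and 0 normalized CPM in Scr untreated, 0, 0.0602, 0.469 and 0 in KO untreated, 0 in the 4 Scr doxorubicin libraries, and 0.0640 in 1 of 4 KO doxorubicin libraries, with 0 in the other 3. These values are at or under the floor of 3 reads in most libraries, so that no difference between groups was detectable at this depth. STING1, the adaptor of CGAS, had 140 reads, at 0.394, 0, 0 and 0.227 normalized CPM in Scr untreated, 0.496, 0.663, 0.872 and 0.656 in KO untreated, 0.832, 0, 1.33 and 0.909 in Scr doxorubicin and 0.576, 0.315, 1.11 and 0.658 in KO doxorubicin. The untreated groups of STING1 do not overlap (two-sided exact permutation p = 0.0286, the smallest that 4 against 4 can give, unadjusted), and it did not pass the level filter of the test across genes.

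Of the RNA sensors, DDX58 was measurable in every library, between 2.76 and 6.87 normalized CPM, while IFIH1 had 35 reads and DHX58 69 reads in all. IRF7, which amplifies the interferon response, had 10 reads in all. Several induced genes were as low, chosen here for their low reads, with 14 reads for MX1, 7 for IFIT3, 8 for OASL, 15 for OAS2, 16 for IFI35 and 14 for IFI44L over the 16 libraries, while others were not, with 410 reads for ISG15 and 2438 for IFI6. Within a family the members differed in level: OAS3 and OAS1 were expressed while OAS2 and OASL were near 0, and IFIT5 was at a median of 17.1 normalized CPM while IFIT1, IFIT2 and IFIT3 had medians under 1. IFITM2 and IFITM3, near-identical membrane proteins whose reads could be split between copies, had medians of 0.553 and 0.205 normalized CPM.

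KO and Scr libraries of the same treatment were then compared by limma on log2(normalized CPM + 1). A gene was tested if 4 or more of the 8 libraries reached 1 normalized CPM, and Benjamini-Hochberg adjustment ran over all genes tested, with a threshold of 0.05. Fold changes are on the log2(normalized CPM + 1) scale, which understates those of low genes. Of the 35 genes, 15 passed the level filter in each treatment. Without treatment, 2 of the 15 passed the threshold, PARP14 and OAS3, both lower in KO, where 4.84% of 14364 genes passed (2.54% lower and 2.3% higher). After doxorubicin, 5 of the 15 passed, where 8.69% of 14572 genes passed: PARP14 and OAS3 were lower in KO (4.17% of all genes were lower), and IRF1, SAMD9 and OAS1 were higher (4.52% of all genes were higher). PARP14 is counted in both treatments although it was tested only through its Scr libraries, so that it had to differ. The median log2 fold change of the 15 genes was 0.11 without treatment and 0.23 after doxorubicin. The other 20 genes of each treatment were too low to be tested.

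PARP14, a mono-ADP-ribosyltransferase, was nearly absent from the KO libraries. It was at 2.91, 3.05, 2.52 and 2.95 normalized CPM in Scr untreated and at 0.386, 0.241, 0 and 0 in KO untreated. After doxorubicin, it was at 3.68, 2.21, 3.71 and 3.12 in Scr and at 0, 0.126, 0.0654 and 0 in KO. Every Scr library lay above every KO library in both treatments. In reads, the untreated groups held 220 in Scr and 11 in KO, a ratio of 16.5 at equal depth (exact 95% interval 9.06 to 33.6), and the treated groups held 184 and 3, a ratio of 66.5 (22.4 to 325), where the intervals cover counting error only. The KO reads were 7, 4, 0 and 0 without treatment and 0, 2, 1 and 0 after doxorubicin. Each ratio thus depends strongly on single KO libraries. The log2 fold change of KO over Scr was -1.75 ± 0.26 (SE, n = 4 per group, adjusted p = 0.000177) without treatment and -1.98 ± 0.29 (adjusted p = 6.16e-05) after doxorubicin. PARP14 passed the level filter through the Scr libraries alone, so that it had to differ. With a filter of 1 normalized CPM in every library, PARP14 was not tested.

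Its neighbours and partners on chromosome 3 did not pass the threshold. PARP9 and DTX3L, which form a complex in DNA repair and interferon signalling, lie head to head on opposite strands at chr3:122527924-122564577 and chr3:122564238-122575203, upstream of PARP14 at chr3:122680618-122730840 (GENCODE 29, GRCh38). PARP9 was at 5.67 ± 1.56 (SD, n = 4) normalized CPM in Scr untreated and 6.12 ± 1.03 in KO untreated, with a log2 fold change of 0.12 (adjusted p = 0.883), and at 6.73 and 6.995 after doxorubicin (log2 fold change 0.13, adjusted p = 0.842). DTX3L was at 13.6 ± 3.69 and 11.5 ± 2.54 normalized CPM in Scr and KO without treatment (log2 fold change -0.21, adjusted p = 0.725), and at 8.66 and 8.85 after doxorubicin. PARP9 and DTX3L overlap at their starts on opposite strands, and the strand setting of the count is not given in the sources used here.

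OAS3, which makes the oligoadenylate that activates RNase L, was the other gene lower in KO in both treatments. It was at 67.5, 49.6, 38.8 and 72.6 normalized CPM in Scr untreated and 39.2, 32.9, 34.3 and 41.6 in KO untreated. After doxorubicin, it was at 46.4, 48.6, 80.3 and 75.7 in Scr and 38.2, 35.6, 29.6 and 38.8 in KO. The untreated groups overlap through the first Scr16 library, and after doxorubicin every KO library lay below every Scr library. The log2 fold change was -0.58 ± 0.15 (SE, adjusted p = 0.0259) without treatment and -0.77 ± 0.15 (adjusted p = 0.00153) after doxorubicin. The untreated call was lost in 4 of 8 fits that left out 1 library (KO11 replicate 2, KO28 replicate 1, Scr13 replicate 1 or Scr16 replicate 2), with an adjusted p of up to 0.131. It was also lost without clone KO11, KO28 or Scr13 and with no filter on low values. The treated call was kept in all 8 fits and was lost without clone Scr16 (adjusted p = 0.0503).

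OAS1, the neighbour of OAS3 on chromosome 12, moved the other way after doxorubicin. It was at 1.31, 1.96, 2.76 and 4.54 normalized CPM in Scr doxorubicin and 6.72, 7.12, 3.79 and 6.76 in KO doxorubicin, which overlap through 1 library of each group, Scr16 replicate 2 and KO28 replicate 1. Without treatment, it was at 2.87, 3.51, 5.71 and 6.25 in Scr and 5.57, 7.17, 6.50 and 3.21 in KO. The log2 fold change was 1.01 ± 0.28 (SE, adjusted p = 0.0261) after doxorubicin and 0.25 ± 0.26 (adjusted p = 0.761) without treatment. The treated call was kept in 3 of 8 fits that left out 1 library and was lost, with an adjusted p of up to 0.0940, without KO11 replicate 1 or 2, Scr13 replicate 1 or 2, or KO28 replicate 2. OAS1 lies at chr12:112906777-112933222 and OAS3 at chr12:112938352-112973249, both on the plus strand, and an annotated antisense transcript overlaps both.

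**Figure D2:**
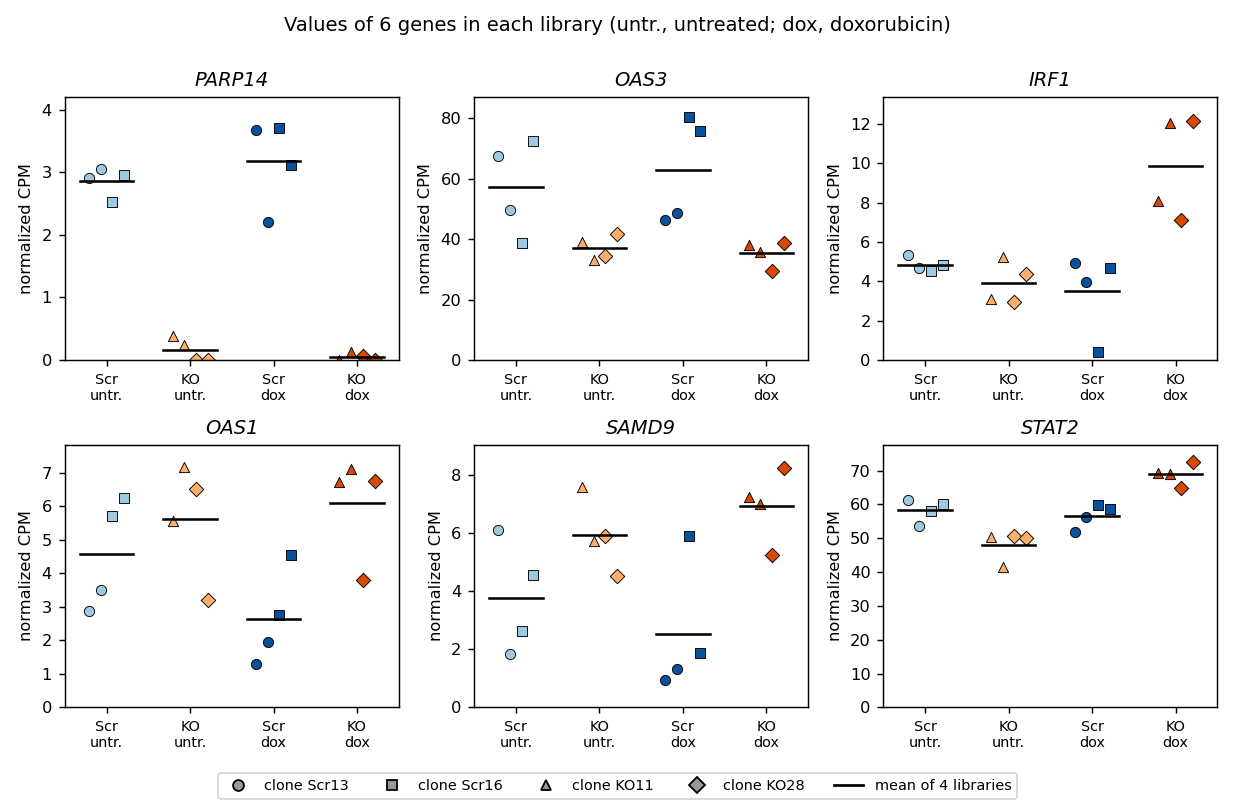
Normalized CPM of PARP14, OAS3, IRF1, OAS1, SAMD9 and STAT2 in each library (vertical axes start at 0), by group, with symbols for the 4 clones and a line at the mean of 4 libraries. PARP14 was at most 0.386 in KO and at least 2.21 in Scr, and IRF1 was at least 7.13 in KO doxorubicin against at most 4.93 in Scr doxorubicin.

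IRF1, a transcription factor that responds to interferon and DNA damage, was higher in KO after doxorubicin. It was at 4.93, 3.97, 0.380 and 4.67 normalized CPM in Scr doxorubicin and 8.06, 12.03, 7.13 and 12.1 in KO doxorubicin. Without treatment, it was at 5.35, 4.66, 4.54 and 4.83 in Scr and 3.09, 5.24, 2.95 and 4.38 in KO. The treated groups do not overlap, the first Scr16 doxorubicin library lay far below the other 3 of its group, and the untreated groups overlap. The log2 fold change was 1.44 ± 0.35 (SE, adjusted p = 0.01002) after doxorubicin and -0.28 ± 0.22 (adjusted p = 0.655) without treatment. The treated call was kept in all 8 fits that left out 1 library and was lost with DESeq2 (adjusted p = 0.143) and with no filter on low values (adjusted p = 0.144). Without Scr16 doxorubicin replicate 1, the log2 fold change was 0.94 (adjusted p = 0.00665).

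SAMD9, an antiviral effector on chromosome 7, was at 0.9503, 1.32, 5.89 and 1.88 normalized CPM in Scr doxorubicin and 7.23, 6.99, 5.23 and 8.25 in KO doxorubicin. The 2 groups overlap through 1 Scr16 library. Without treatment, it was at 6.10, 1.84, 2.64 and 4.54 in Scr and 7.60, 5.72, 5.90 and 4.52 in KO. In the limma fit, the log2 fold change was 1.35 ± 0.32 (SE, adjusted p = 0.00774) after doxorubicin and 0.61 ± 0.27 (adjusted p = 0.281) without treatment. Without clone KO11, the calls of IRF1 (adjusted p = 0.117) and SAMD9 (adjusted p = 0.121) were lost, as they were without clone KO28 (adjusted p = 0.0971 and 0.0793), and SAMD9 was also lost without clone Scr13 (adjusted p = 0.133) and with no filter on low values (adjusted p = 0.111). OAS1 was lost without KO11, KO28 or Scr13, and also with edgeR (adjusted p = 0.0610), with no filter (adjusted p = 0.167) and with the mean of each clone (adjusted p = 0.0786), and the treated call of OAS3 was kept without either KO clone.

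STAT2, a transcription factor of interferon signalling, had KO and Scr libraries that lay apart in opposite directions in the 2 treatments, without passing the threshold. It was at 61.3, 53.5, 58.2 and 60.0 normalized CPM in Scr untreated and 50.3, 41.5, 50.6 and 50.0 in KO untreated. After doxorubicin, it was at 51.7, 56.1, 59.8 and 58.8 in Scr and 69.2, 69.0, 64.7 and 72.4 in KO. Every KO library lay below every Scr library without treatment and above every Scr library after it. In the limma fit, the log2 fold change was -0.27 ± 0.09 (SE, adjusted p = 0.126) without treatment and 0.28 ± 0.09 (adjusted p = 0.0529) after doxorubicin. Without Scr16 doxorubicin replicate 1, the treated difference passed it (adjusted p = 0.0354), as it did without clone Scr16 (adjusted p = 0.0374) and with DESeq2 (adjusted p = 0.0349). The treated difference also passed with the clone as a random block. Groups did not overlap for 3 of the 15 genes without treatment (STAT2, IFITM2 and PARP14), against 9.29% of all genes tested, and for 5 after doxorubicin (STAT2, IRF1, OAS3, PARP14 and IFI6), against 13.2%. PARP14, in both counts, passed the level filter through Scr libraries alone, and IFITM2 through KO libraries alone. The groups of these genes thus could not overlap.

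**Figure D3:**
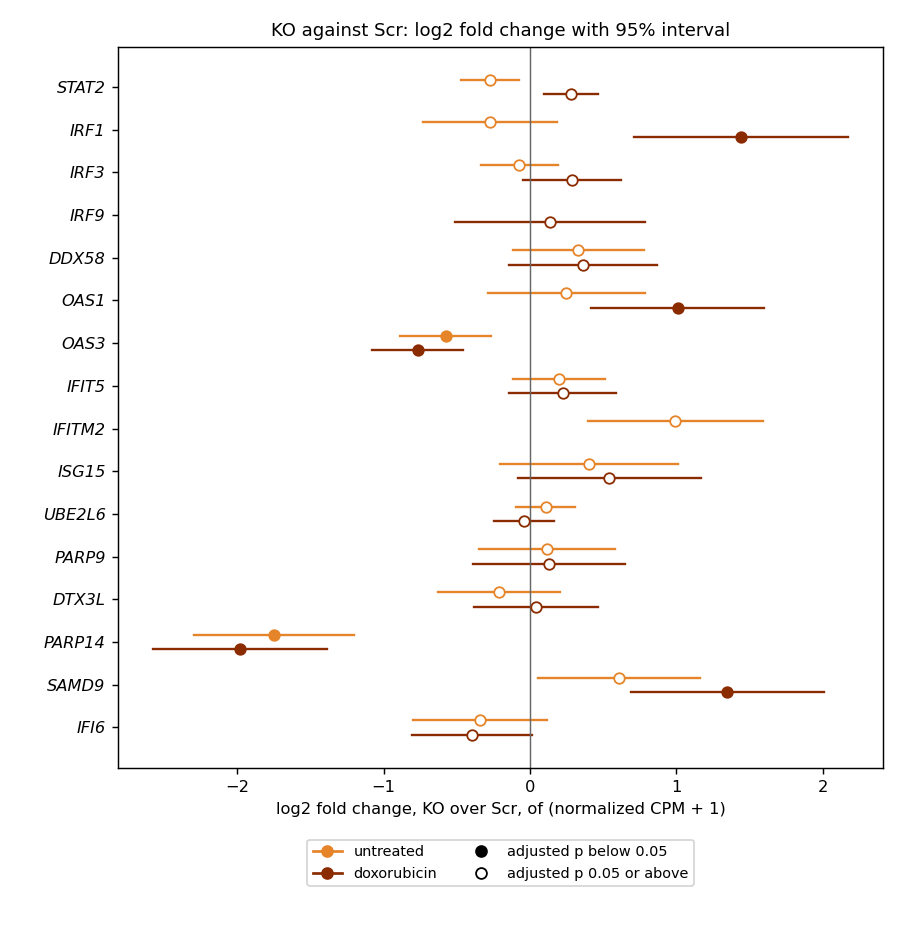
Log2 fold change of KO over Scr, on the log2(normalized CPM + 1) scale, with its 95% interval for each gene tested, in untreated and in doxorubicin libraries, filled where the adjusted p was below 0.05. PARP14 (-1.75 and -1.98) and OAS3 (-0.58 and -0.77) lie below 0 in both treatments, and IRF1 (1.44), SAMD9 (1.35) and OAS1 (1.01) lie above 0 after doxorubicin.

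The other genes tested did not pass the threshold. ISG15 was at 1.54, 1.497, 0.982 and 0.738 normalized CPM in Scr untreated, 1.27, 1.26, 1.68 and 3.87 in KO untreated, 1.72, 1.01, 0.760 and 0.714 in Scr doxorubicin and 1.92, 1.13, 1.77 and 3.29 in KO doxorubicin. Its groups overlap in both treatments, and its log2 fold change was 0.40 (95% interval -0.20 to 1.01, adjusted p = 0.610) without treatment and 0.54 (-0.09 to 1.17, adjusted p = 0.335) after doxorubicin. UBE2L6 was at a log2 fold change of 0.11 (95% interval -0.09 to 0.31) without treatment and -0.04 (-0.25 to 0.16) after doxorubicin. IFIT5 was at a log2 fold change of 0.20 (-0.11 to 0.51) and 0.23 (-0.14 to 0.59), DDX58 at 0.33 (-0.12 to 0.78) and 0.36 (-0.14 to 0.87), and IRF3 at -0.07 (-0.34 to 0.19) and 0.29 (-0.05 to 0.62). IFITM2, chosen after its values were seen, had 0.99 ± 0.29 (SE, adjusted p = 0.0503) without treatment and passed the level filter through KO libraries alone. It was called by DESeq2 (adjusted p = 0.0210), and also with a pseudocount of 0.25, with no filter and with the clone as a random block.

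Doxorubicin was compared with no treatment within each genotype, with the clone as a term. The comparisons share the untreated or treated libraries with those above. In Scr, 1 of 15 genes tested passed the threshold, against 12.3% of 14378 genes (7.1% higher and 5.24% lower). In KO, 4 of 16 passed, all higher, against 19.6% of 14513 genes (11.3% higher and 8.35% lower), and these 4 were the 4 transcription factors tested: STAT2, IRF1, IRF3 and IRF9. IRF9 was tested in KO only through its treated libraries, so that it had to come out higher. The median log2 fold change was -0.04 over the 15 genes in Scr and 0.10 over the 16 genes in KO. All 10 p53 targets examined as a check of treatment, such as CDKN1A and MDM2, rose in both genotypes. Of these targets, FAS was tested in Scr only through its treated libraries, so that it had to come out higher there. Between KO and Scr, 5 of the 9 of these targets tested were higher in KO without treatment, against 2.3% of all genes, and 9 of 10 after doxorubicin, against 4.52%, with median log2 fold changes of 0.52 and 0.77. CDKN1A, a cell cycle inhibitor, was at 57.0 normalized CPM in Scr and 136 in KO without treatment (log2 fold change 1.27, adjusted p = 3.36e-06) and at 337 and 736 after doxorubicin (log2 fold change 1.13, adjusted p = 1.98e-09).

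From the values given above, STAT2 rose with doxorubicin in KO by a log2 fold change of 0.51 ± 0.09 (SE, adjusted p = 0.000223), and every treated KO library lay above every untreated one. In Scr, it was at -0.04 ± 0.09 (adjusted p = 0.822), and the groups overlap. IRF1 rose in KO by 1.14 ± 0.23 (adjusted p = 0.000690), without overlap, and was at -0.58 ± 0.34 (adjusted p = 0.300) in Scr. Without Scr16 doxorubicin replicate 1, the IRF1 value in Scr was -0.087 (adjusted p = 0.854). IRF3 was at 22.8, 23.2, 22.0 and 20.5 normalized CPM in Scr untreated, 27.5, 32.6, 18.3 and 20.2 in Scr doxorubicin, 21.4, 21.8, 22.8 and 18.2 in KO untreated and 25.6, 29.5, 27.8 and 36.1 in KO doxorubicin. Its treated and untreated KO libraries do not overlap, and its log2 fold change was 0.47 ± 0.13 (adjusted p = 0.0116) in KO and 0.11 ± 0.14 (adjusted p = 0.660) in Scr. The call of IRF3 was lost without KO28 doxorubicin replicate 2 (adjusted p = 0.0736). IRF3 overlaps BCL2L12 on the opposite strand. Without clone KO11, IRF1 was the 1 gene of the 4 still called, and without clone KO28 the calls were IRF1 and STAT2.

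IRF9, which gives its complex with STAT2 its DNA binding, was a low gene. It was at 0.606, 0.120, 0.536 and 0.146 normalized CPM in KO untreated and 1.28, 1.20, 2.88 and 2.33 in KO doxorubicin. In Scr, it was at 1.42, 1.04, 0.184 and 1.19 without treatment and 1.07, 1.96, 2.95 and 0.844 after doxorubicin. The KO groups do not overlap and the Scr groups do. In the limma fit, the log2 fold change was 1.09 ± 0.30 (SE, adjusted p = 0.0103) in KO, where IRF9 passed the level filter through the treated libraries alone, and 0.45 ± 0.33 (adjusted p = 0.425) in Scr. Between KO and Scr after doxorubicin it was at 0.13 ± 0.31 (adjusted p = 0.871).

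DTX3L was the gene that fell in Scr. It was at 14.3, 9.15, 18.1 and 13.01 normalized CPM in Scr untreated, 6.47, 7.63, 10.5 and 10.1 in Scr doxorubicin, 13.9, 13.4, 8.52 and 10.4 in KO untreated and 9.92, 7.31, 9.94 and 8.25 in KO doxorubicin. The Scr groups overlap through the second untreated Scr13 library. In the limma fit, the log2 fold change was -0.59 ± 0.19 (SE, adjusted p = 0.0474) in Scr and -0.33 ± 0.19 (adjusted p = 0.231) in KO, and the call in Scr was kept in 1 of 8 fits that left out 1 library, the one without Scr16 untreated replicate 2, with an adjusted p of up to 0.207 in the others. IFIT5 was at -0.41 (adjusted p = 0.118) in Scr and -0.38 (adjusted p = 0.0593) in KO by limma. In KO it was called lower with edgeR (adjusted p = 0.0357), DESeq2 (adjusted p = 0.0267) and library size alone (adjusted p = 0.0411). It was also called lower there without KO28 untreated replicate 1 (adjusted p = 0.0451).

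**Figure D4:**
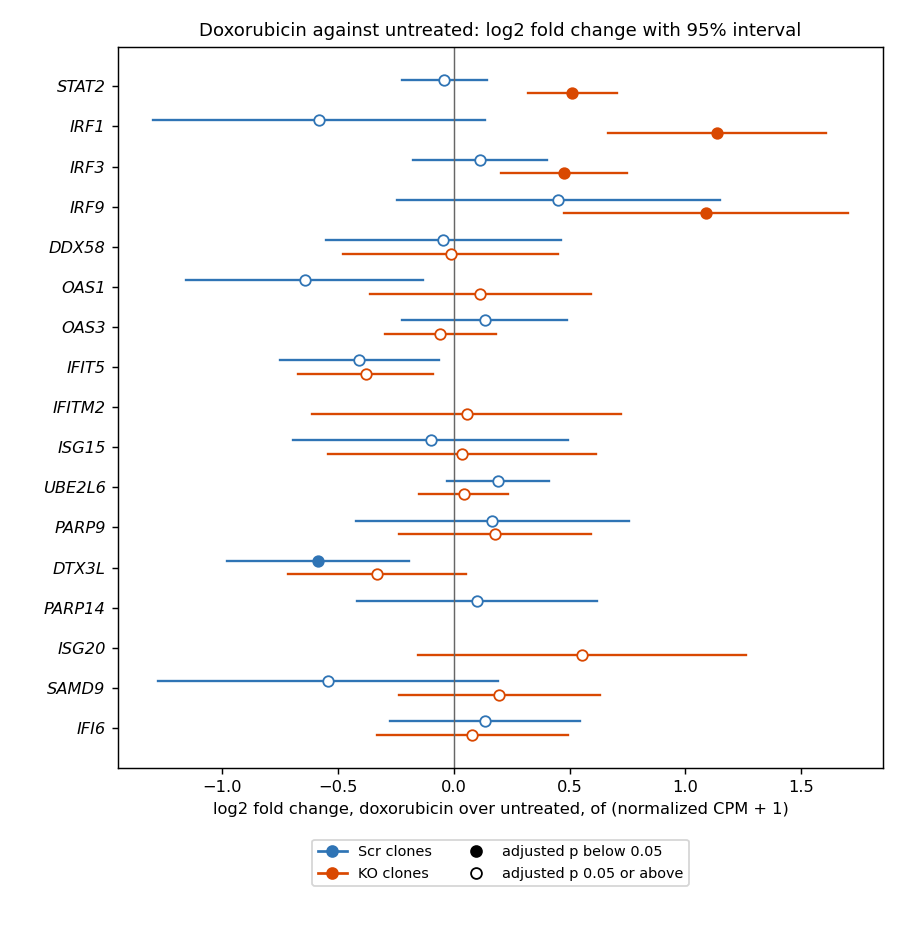
Log2 fold change of doxorubicin over untreated, on the log2(normalized CPM + 1) scale, with its 95% interval in Scr and in KO clones, filled where the adjusted p was below 0.05. STAT2, IRF1, IRF3 and IRF9 are filled in KO (0.51, 1.14, 0.47 and 1.09) and open in Scr, where DTX3L alone is filled (-0.59).

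Whether doxorubicin acted differently in the 2 genotypes was tested as an interaction over the 16 libraries. None of the 17 genes tested passed the threshold with limma, against 0.0261% of 15325 genes (0.0131% higher and 0.0131% lower), and 3 of the 17 had an unadjusted p under 0.05, as did 1274 of the 15325. The smallest were STAT2, with an interaction of 0.55 ± 0.12 (SE, log2, adjusted p = 0.0974), and IRF1, with 1.72 ± 0.43 (adjusted p = 0.142), which was 1.22 (adjusted p = 0.200) without Scr16 doxorubicin replicate 1. STAT2 was the 1 gene called by DESeq2 (adjusted p = 0.0104), and edgeR's quasi-likelihood test called 0. The calls of the 4 transcription factors in KO and not in Scr are therefore not shown to differ between genotypes by the limma test.

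The rest of the pathway was followed in lists that do not share genes with the 35. The 10 interferon ligand genes of the list were not analysed here. Of 17 receptors and JAK-STAT genes, 16 have a row and 15 were tested; 0 passed between KO and Scr without treatment (2 at an unadjusted p under 0.05 by limma), against 4.84% of all genes, and 1 after doxorubicin, against 8.69%, a share near that of all genes. This was STAT3, a transcription factor of the interleukin response, at 99.4, 90.3, 94.5 and 83.4 normalized CPM in Scr doxorubicin and 136, 116, 131 and 121 in KO doxorubicin, which do not overlap (log2 fold change 0.45 with an SE of 0.08, adjusted p = 0.000822). With doxorubicin, IFNAR1, STAT3 and IRF5 were among the genes of this list that rose in KO, and 2 rose in Scr (IFNGR2 and STAT3).

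Of 24 adaptors, kinases and nucleases of sensing, 16 have a row and 13 were tested. None passed between KO and Scr without treatment (2 at an unadjusted p under 0.05 by limma), against 4.84% of all genes, and 1 passed after doxorubicin, against 8.69%, again near the share of all genes: RNASEH2B, a subunit of the nuclease that removes ribonucleotides from DNA. It was at 26.6, 38.7, 33.6 and 39.5 normalized CPM in Scr doxorubicin and 23.1, 22.4, 25.6 and 26.2 in KO doxorubicin, which do not overlap, with a log2 fold change of -0.48 ± 0.13 (SE, adjusted p = 0.0254). The call was lost without KO11 replicate 1 or 2, Scr13 replicate 2 or Scr16 replicate 2, with an adjusted p of up to 0.0999. It was also lost without clone KO11, KO28 or Scr16, with no filter and with the mean of each clone (adjusted p of up to 0.318). In KO, doxorubicin raised MAVS, TICAM1 and UNC93B1 and lowered RNASEH2B and RNASEH2C, where 19.6% of all genes passed, and in Scr it changed 0 of the 13 past the threshold (4 at an unadjusted p under 0.05 by limma), where 12.3% of all genes passed. None of the 13 passed the interaction test by limma (0 at an unadjusted p under 0.05).

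Among 37 further interferon-stimulated genes, 32 have a row, and 23 were tested without treatment and 24 after doxorubicin. SHISA5, a p53- and interferon-induced protein of the endoplasmic reticulum, was at 57.3, 36.3, 41.1 and 51.5 normalized CPM in Scr untreated, 6.67, 7.41, 9.92 and 13.8 in KO untreated, 54.1, 57.2, 55.8 and 59.7 in Scr doxorubicin and 17.98, 15.2, 21.5 and 20.6 in KO doxorubicin. Its KO libraries all lay below its Scr libraries, with log2 fold changes of -2.21 ± 0.19 (SE, adjusted p = 1.72e-07) and -1.55 ± 0.12 (adjusted p = 2.23e-08). TRIM14, an adaptor of mitochondrial antiviral signalling, was lower in KO without treatment (-1.14 ± 0.24, adjusted p = 0.00538) and after doxorubicin (-0.93 ± 0.29, adjusted p = 0.0468). The untreated call was lost without clone KO28 (adjusted p = 0.0661) or Scr16 (adjusted p = 0.0616) and with no filter (adjusted p = 0.114). The treated groups of TRIM14 overlap, between 10.1 and 37.0 normalized CPM in Scr and 6.21 and 12.6 in KO, and the treated call was lost without KO11 replicate 1 or 2, Scr16 replicate 1 or 2 or KO28 replicate 1, with an adjusted p of up to 0.144. Without Scr16 replicate 1 its log2 fold change was -0.58.

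GBP2, an interferon-induced GTPase, was higher in KO, at 0.630, 0.173, 0.123 and 1.02 normalized CPM in Scr untreated, 1.87, 3.49, 1.27 and 1.68 in KO untreated, 0.535, 0.0631, 0 and 0.130 in Scr doxorubicin and 4.93, 7.31, 2.29 and 5.86 in KO doxorubicin. Its groups do not overlap in either treatment, and its log2 fold change was 1.04 ± 0.30 (SE, adjusted p = 0.0488) and 2.31 ± 0.31 (adjusted p = 2.83e-05). The untreated call of GBP2 was kept in 2 of 8 fits, those without KO28 replicate 1 or Scr16 replicate 2, with an adjusted p of up to 0.183 in the others. TRIM5, a restriction factor that overlaps TRIM22, was higher in KO after doxorubicin (1.88 ± 0.31, adjusted p = 0.000269), as was ZNFX1, a helicase that senses RNA (0.39 ± 0.11, adjusted p = 0.0273), whose call was kept in 2 of 8 fits, those without KO11 replicate 2 or Scr16 replicate 1, with an adjusted p of up to 0.116 in the others. After doxorubicin, GBP2 and TRIM5 passed the level filter through KO libraries alone, so that they had to come out higher. They are still included in the treated count that follows. In all, 3 of 23 genes of this list passed without treatment (1 higher), against 4.84% of all genes, and 5 of 24 after doxorubicin (3 higher), against 8.69%, and the median log2 fold changes of those tested were -0.04 and 0.12. With doxorubicin, 9 of 24 rose in KO, PML and RNF213 among them, against 11.3% of all genes, and 2 of 22 in Scr, PML and RNF213, against 7.1%. None of the 25 genes of the list tested for the interaction passed by limma (4 at an unadjusted p under 0.05).

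Of 12 NF-κB targets and cytokines, 6 have a row and 4 were tested. Between KO and Scr, 1 of the 4 passed in each treatment, where 4.84% and 8.69% of all genes did, and with doxorubicin RELB and ICAM1 rose in KO, where 11.3% of all genes rose, and 0 of 3 passed in Scr (0 at an unadjusted p under 0.05 by limma). Of 8 fits that left out 1 library, the call of RELB in KO was kept in 2, those without KO28 untreated replicate 1 or KO28 doxorubicin replicate 2, and that of ICAM1 in 1, without KO28 untreated replicate 1, with an adjusted p of up to 0.144 and 0.217 in the others. Both calls were also lost with edgeR, library size alone, no filter and a pseudocount of 0.25. They were lost without clone KO11 or KO28 as well (adjusted p of up to 0.477 and 0.544), and that of ICAM1 with no clone term. ICAM1, an adhesion molecule, was higher in KO, with a log2 fold change of 1.25 ± 0.28 (SE, adjusted p = 0.0103) without treatment and 1.93 ± 0.30 (adjusted p = 0.000133) after doxorubicin. It was at 0.161 ± 0.213 (SD, n = 4) and 1.78 ± 0.592 normalized CPM in Scr and KO untreated and at 0.226 ± 0.337 and 3.63 ± 0.956 after doxorubicin, with groups that do not overlap. ICAM1, the 1 gene counted in each treatment, passed the filter through KO libraries alone, so that it had to come out higher. The untreated call was lost without clone KO28, Scr13 or Scr16, with an adjusted p of up to 0.156. The other 3 genes did not pass in either treatment.

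Markers of cell types were read beside these results. The summed level of 10 adrenergic neuroblastoma markers was between 4691 and 5807 normalized CPM in every library, with TH under 1 on average in every group. The highest group mean was that of DBH in both untreated groups and that of HAND2 in both treated groups. Of 10 leukocyte markers, 4 have a row (CD14, LYZ, CSF1R and ITGAM), and their sum was between 0.165 and 1.67. Of 10 fibroblast markers, 9 have a row. Their sum was between 190 and 354 normalized CPM in Scr untreated, 343 and 475 in KO untreated, 233 and 263.3 in Scr doxorubicin and 442 and 540 in KO doxorubicin. COL1A1, COL3A1, DCN, LUM and ACTA2 were higher in KO in both treatments. These were 5 of 8 tested without treatment and 5 of 7 after doxorubicin, against 2.3% and 4.52% of all genes. PDGFRB and THY1 were not called (limma adjusted p = 0.832 and 0.929 untreated, 0.292 and 0.410 treated). DCN and LUM were too low in Scr to be tested there for doxorubicin. Their level filter thus rested mainly on KO libraries, which favoured a higher value in KO. ACTA2 overlaps FAS on the opposite strand and rose with doxorubicin by 2.50 (log2) in Scr and 1.92 in KO. COL3A1, the most abundant in KO, was between 126 and 215 normalized CPM in KO and between 10.8 and 139 in Scr without treatment, which overlap, and between 154 and 215 and between 6.88 and 83.9 after doxorubicin, which do not, and FAP was at 0 in the 4 Scr doxorubicin libraries. The part of these markers in the differences of GBP2, ICAM1, IRF1 and the other genes was not tested.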

How the data were processed

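Per the submitters' processing notes, bcl2fastq, HISAT2 2.1.0, HTSeq and edgeR were used with GRCh38. The authors compared KO with Scr within each treatment, with the 2 replicates of both clones combined, by edgeR and Benjamini-Hochberg adjusted p-values. The settings of the aligner and counter, the use of strand included, are not given in the sources used here. The library kit was directional and selected poly(A) RNA. The deposited library values are a signal, read counts that the authors scaled to a library size of their own estimate (normalized CPM). All values were whole multiples of 1 read within 0.01 reads (100%), with factors between 0.974 and 1.03, whose product was nearer to 1 over both tables (1.03) than in either (1.10 and 0.935), so that levels are set side by side across tables. Columns of the authors' own comparisons (fold changes, p-values, q-values) were not used, and 0 columns of library values were left over.

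Identifiers were matched to current symbols, earlier names or GENCODE 29 names, and 95.0% had a symbol. The 41 genes and the other lists were chosen with earlier results of these data known. limma 3.58.1 in R 4.3.3 was fitted to log2(normalized CPM + 1) with a trend of the spread on level, and with the clone as a fixed term in the treatment and interaction fits. The 2 libraries of a clone counted as replicates. For single values a two-sided exact permutation test was used. No list was tested as a set. Alternatives were pseudocounts of 0.25 and 4, no filter, a filter in every library, edgeR 4.0.16 and DESeq2 1.42.0 on recovered reads, library size alone, a replicate block, other clone terms, and each library or clone left out. The fits were tested on simulated data. Values per library are given for genes past the threshold between KO and Scr, or with doxorubicin at a mean of at least 5 normalized CPM, and for IRF9, STAT2, ISG15, CGAS and STING1, and of the other lists up to 6 genes past the threshold between KO and Scr are named. FAP, DBH, HAND2, IFI6, UBE2L6, IFIT5, DDX58, PARP9 and genes named for their low reads fall outside that rule and were added with their values known. Some items are not reported here.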

Additional observations from a re-analysis of the deposited data

Results flagged for a closer look

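Among 48 groups of 4 libraries examined for 12 genes, 5 held a library whose gap to the nearest of the others took a larger part of the range of its group than Dixon's critical value for 4 values, where chance gives about 1 in 20. OAS1 in KO28 doxorubicin replicate 1 was at 3.79 normalized CPM, below the other 3 KO libraries. STAT2 in KO11 untreated replicate 2 was at 41.5, the lowest of the 16 libraries. ISG15 in KO28 untreated replicate 2 was at 3.87, the highest of the 16. CGAS in KO28 untreated replicate 1 was at 0.469, and in KO11 doxorubicin replicate 1 it was at 0.0640, a single read where the other 3 libraries of the group were at 0, so that the chance rate does not apply to it. The cause of these values was not tested.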

How the results depend on the processing

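PARP14, which is tested only because its Scr libraries pass the level filter, had log2 fold changes from -4.09 to -0.72 without treatment and from -6.07 to -0.82 after doxorubicin. OAS3 kept its direction in all 22 alternatives of each treatment. IRF9 between KO and Scr after doxorubicin, not called, turned to -0.027 without Scr16 replicate 2, to -0.016 without KO28 replicate 1 and to -0.21 without clone KO28, with 0.34 as the highest value when 1 library was left out. The cause was not tested.

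The number of genes called among all genes was 368 with no filter, 362 without clone Scr13 and 364 without clone Scr16 between KO and Scr untreated, 574 without clone KO11 and 629 without clone KO28 after doxorubicin, 831 with no filter, 264 without clone Scr13 and 760 without clone Scr16 in the treatment comparison of Scr, and 1040 without clone KO11 in that of KO. Among the interferon-stimulated and sensing genes, 1 was called between KO and Scr untreated with at least 1 normalized CPM in every library and without clone KO11, KO28 or Scr13, and 2 after doxorubicin with no filter, with at least 1 normalized CPM in every library and without clone KO11 or KO28. In Scr, 0 were called with no filter, without either clone and with no clone term. In KO, 1 was called without clone KO11 and 2 without clone KO28. For the interaction, all genes called were 20 with a pseudocount of 4, 2 with no filter, 10 with edgeR, 53 with DESeq2, 0 without clone KO11, 1 without clone KO28, 10 without clone Scr13 and 1 without clone Scr16, against 4, and 1 of the interferon-stimulated and sensing genes was called with DESeq2.

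With 1 library left out, the calls ranged from 538 to 711 and from 863 to 1342 between KO and Scr untreated and treated, from 1091 to 1760 and from 2049 to 2895 for doxorubicin in Scr and KO, and from 1 to 19 for the interaction. Among the interferon-stimulated and sensing genes these ranges were 1 to 2, 4 to 6, 0 to 1, 3 to 5 and 0 to 0.

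Replicate numbers were shared between clones without a stated pairing, and the correlations of replicate differences over 28 pairs ran from -0.10 to 0.12, with 1 over 0.1. With a replicate block, the interaction called 25 genes, STAT2 between KO and Scr after doxorubicin passed the threshold (adjusted p = 0.0458), TRIM14 lost its call there (adjusted p = 0.0510), and the counts of calls among the interferon-stimulated and sensing genes were within 1.5 times otherwise.

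Depth limits what can be said of 20 genes with a median under 1 normalized CPM, where 3 reads are worth up to 0.285.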

Other observations

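Genes around PARP14 and OAS3 were read after their values had been seen. Of 12 other genes of the tables within 300 kb of the start of PARP14 (GENCODE 29), 11 were tested and 0 passed the threshold between KO and Scr in either treatment by limma. KPNA1, the most abundant of them, was at 93.5 normalized CPM in Scr and 94.6 in KO without treatment (adjusted p = 0.958) and at 104 and 123 after doxorubicin (adjusted p = 0.0614). HSPBAP1, on the other side of PARP14, was at 9.93 and 7.67 without treatment (adjusted p = 0.405) and at 8.44 and 9.85 after doxorubicin (adjusted p = 0.676). Of 12 other genes within 300 kb of OAS3, 7 were tested, 0 passed without treatment and OAS1 alone passed after doxorubicin. RPH3A, the most abundant, was at 219 in Scr and 215 in KO without treatment and at 190 and 192 after doxorubicin, and DTX1 was at 54.2 and 61.2, and at 60.7 and 53.9.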
